A study of Macaca fascicularis with 8 samples.

Results

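Desmosomes and gap junctions are membrane structures that join neighbouring cells, and 9 genes for their parts are described here out of 33121 genes in the deposited table. They are DSP, DSG2, DSC2, JUP, PKP2, PKP3 and PERP of the desmosome and the connexin genes GJA1 and GJC1. The set is given by gene name and was chosen with earlier results of these data known. The shares of all genes given beside its counts are therefore no test of the set. A row was taken where the table named the gene (3 genes) or, failing that, where the best protein match carried the protein's name (6 genes), and each gene had 1 row. The study compared embryonic stem cells (ESCs) of the cynomolgus monkey, Macaca fascicularis, in 2 states by sequencing polyadenylated RNA of 4 primed and 4 dome-shaped libraries. Primed ESCs formed flat colonies in CESM, which blends PSGro, a purchased medium for human stem cells, with the usual medium for monkey ESCs, and the labels rate their passage as single cells as weak. Dome-shaped ESCs, rated strong, were grown in NHSMV, a knockout DMEM medium with AlbuMAX, N2 supplement, insulin, LIF, bFGF, TGF-β1, vitamin C and the kinase inhibitors PD0325901 (against MEK), CHIR99021 (GSK3), SB202190 and SB203580 (p38) and SP600125 (JNK). Medium, colony shape and group coincide and cannot be told apart. The labels do not say that libraries of a group came from separate cultures, so the p-values measure only the spread between these libraries, which may be technical. Primed replicates 3 and 4 share the number after CES in their sample titles, as do dome-shaped replicates 1 and 2. Between the groups, primed replicate 1 shares it with dome-shaped replicates 1 and 2, and primed replicate 2 with dome-shaped replicate 3. Primed replicates 3 and 4 share the number with dome-shaped replicate 4, whose title differs from that of primed replicate 4 only in its last letter. What this number marks is not stated.

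A desmosome ties the intermediate filaments of one cell to those of the next. Its cadherins, the desmogleins and desmocollins, meet between the cells, plakoglobin and the plakophilins bind their inner ends, and desmoplakin connects these to the filaments, which in epithelia are keratins. A gap junction is a cluster of channels made of connexins, through which ions and small molecules pass directly from cell to cell. Primed pluripotent cells grow as epithelial sheets and are known to be coupled by connexin 43, the product of GJA1.

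In dome-shaped ESCs the desmosomal linker DSP, the plaque genes JUP and PKP2 and the cadherin gene DSG2 were lower than in primed ESCs. Levels are RPKM (reads per kilobase of gene length, scaled to library depth), and tests are limma's moderated test on log2(RPKM + 1) with Benjamini-Hochberg adjustment over 15597 genes (those reaching 1 RPKM in 4 or more libraries), called at an adjusted p below 0.05. Of the 8 genes that could be tested, 5 were called, where 14.3% of all genes tested were. DSP, DSG2, JUP and PKP2 fell (4 genes, where 7.96% of all genes were called lower). GJC1 rose, where 6.38% of all genes were called higher, and DSC2, PERP and GJA1 were not called. PKP3 lay below the filter. All 8 tested genes were above 1 RPKM in every library of both groups. Their median log2 fold change, dome-shaped minus primed, was -0.55, beside 0.026 for all genes tested. Libraries of the groups did not overlap for DSP, DSG2 and PKP2, 3 of the 8 tested genes, where 22.2% of all genes tested did not overlap, nor did they for PKP3.

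**Figure D1:**
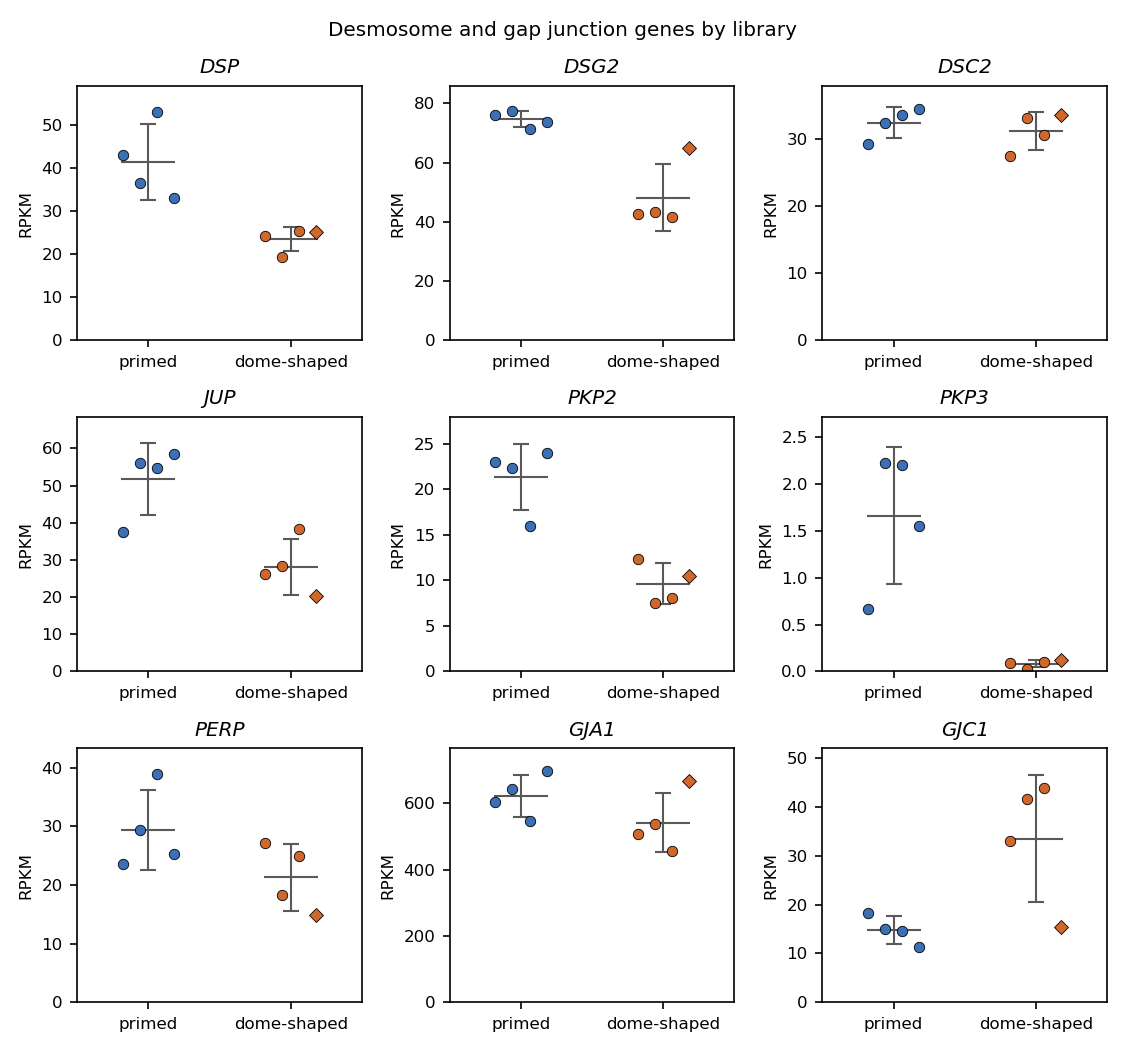
RPKM of each of the 9 genes (vertical axes, from 0) in the 4 primed and 4 dome-shaped libraries. Points are libraries, diamonds are dome-shaped replicate 4, and bars give the mean and SD. All dome-shaped points of DSP, DSG2, PKP2 and PKP3 lie below all primed points, and replicate 4 lies apart from the other dome-shaped points for DSG2 and GJC1.

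The RPKM steps implied 16357830 to 18075200 reads in primed and 14400010 to 17675260 in dome-shaped libraries, of which 3 were shallower than every primed library, and 15141 to 15830 genes reached 1 RPKM. All 7 epithelial marker genes listed (CDH1, EPCAM, ESRP1, GRHL2, RAB25, CLDN4 and CLDN7) were lower in dome-shaped cells, with summed levels of 344 to 483 RPKM in primed and 36.7 to 124 RPKM in dome-shaped libraries. The highest of the latter, 124 RPKM, was dome-shaped replicate 4. Of 6 mesenchymal markers, ZEB1, ZEB2 and TWIST1 were higher and SNAI2, CDH2 and FN1 were not called, and their sums of 75.6 to 256 RPKM in primed and 170 to 386 RPKM in dome-shaped libraries overlapped. Of 6 trophoblast markers 4 were tested, of which KRT7 and HAND1 were lower, CGA and TP63 were under 1 RPKM throughout, and sums were 20.3 to 86.4 RPKM and 5.42 to 10.1 RPKM. Of 6 pluripotency genes, TDGF1 and ZFP42 were lower and the other 4, SOX2, NANOG, LIN28A and SALL4, were not called. Of 8 fibroblast markers 6 were matched to a row, and their summed level was 64.2 to 198 RPKM in primed libraries, highest in primed replicate 1, and 35.0 to 59.8 RPKM in dome-shaped libraries, with DCN and POSTN under 1 RPKM throughout and PDGFRB called lower. Leaving out 1 library ended the calls of HAND1 (primed replicates 2 and 4, dome-shaped 2 and 3, limma adjusted p up to 0.0639), TDGF1 (primed 1 to 4, dome-shaped 2 and 3, up to 0.0819) and PDGFRB (primed 1, 2 and 4, dome-shaped 1 and 2, up to 0.0744). CDH1, GRHL2, RAB25, CLDN4 and HAND1 passed the filter through the primed group, and ZEB1 and ZEB2 passed it through the dome-shaped group. The part of these marker differences in the results below was not tested. In bulk RNA, fewer cells that express a gene and less RNA per cell cannot be told apart.

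DSP encodes desmoplakin, which anchors intermediate filaments to the plaque. Its level was 43.1, 36.5, 52.9 and 32.9 RPKM in primed replicates 1 to 4 and 24.3, 19.2, 25.3 and 25.05 RPKM in dome-shaped replicates 1 to 4. Every primed library was higher than every dome-shaped library, and the primed libraries were the more scattered. Means were 41.4 ± 8.77 and 23.5 ± 2.86 RPKM (SD, n = 4 each), a log2 fold change of -0.78 (SE 0.15, limma adjusted p = 0.0123). DSP was called with any single library left out.

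JUP encodes plakoglobin, the armadillo protein that binds desmosomal cadherin tails and is also found in adherens junctions. It stood at 37.5, 56.1, 54.8 and 58.5 RPKM in primed and at 26.1, 28.3, 38.3 and 20.2 RPKM in dome-shaped libraries. The groups overlapped only between primed replicate 1, the lowest primed library, and dome-shaped replicate 3, the highest dome-shaped one. Its mean of 51.7 ± 9.59 RPKM in primed cells fell to 28.2 ± 7.54 RPKM (SD, n = 4 each; log2 fold change -0.87, SE 0.20, limma adjusted p = 0.0216). Leaving out 1 library ended the call in 4 of 8 cases, with limma adjusted p-values of 0.0632 for primed replicate 2 (log2 fold change -0.82), 0.0571 for primed replicate 3 (-0.83), 0.0595 for primed replicate 4 (-0.80) and 0.0558 for dome-shaped replicate 2 (-0.88).

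PKP2 encodes plakophilin 2, which clusters desmoplakin at the plaque and is the plakophilin of heart and simple epithelia. Primed libraries held 23.04, 22.4, 15.9 and 24.0 RPKM and dome-shaped libraries 12.4, 7.496, 8.11 and 10.5 RPKM. The lowest primed library, replicate 3, was above the highest dome-shaped library, replicate 1. The fall from 21.3 ± 3.66 to 9.62 ± 2.24 RPKM was the largest on the log2 scale among the 4 genes called lower (log2 fold change -1.08, SE 0.18, limma adjusted p = 0.00701), and it was called with any single library left out. The table names this row PKP2, but its best protein match has only 71.1% identity.

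PKP3 encodes plakophilin 3, found in most desmosome-bearing epithelia. Its levels were 0.668, 2.22, 2.21 and 1.55 RPKM in primed libraries and 0.089, 0.025, 0.101 and 0.124 RPKM in dome-shaped libraries. These values correspond to 31, 102, 112 and 73 reads against 4, 1, 5 and 5 reads, 318 and 15 in all. The dome-shaped values are thus counts of a few reads, and the size of the difference is poorly determined. Means were 1.66 ± 0.734 and 0.0846 ± 0.0424 RPKM (SD, n = 4 each). With 3 primed libraries at 1 RPKM or more, PKP3 missed the filter by 1 library. An exact two-sided permutation test over the libraries gave p = 0.0286, the smallest that 4 against 4 allows. In a fit with no filter the log2 fold change was -1.25 (SE 0.21, limma adjusted p = 0.0152), a scale that understates changes of low genes.

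Of the abundant desmosomal cadherins, DSG2 was called lower and DSC2 was not called. DSG2, desmoglein 2, the desmoglein of simple epithelia, stood at 76.0, 77.4, 71.3 and 73.8 RPKM in primed and at 42.7, 43.3, 41.6 and 64.9 RPKM in dome-shaped libraries. Dome-shaped replicate 4 lay between the tight group of the other dome-shaped libraries and the primed libraries, and the groups did not overlap. Means were 74.6 ± 2.68 and 48.1 ± 11.2 RPKM (log2 fold change -0.65, SE 0.14, limma adjusted p = 0.0160). Without dome-shaped replicate 2 the adjusted p was 0.0502 (log2 fold change -0.61).

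DSC2, desmocollin 2, the partner cadherin of DSG2 in simple epithelia, stood at 29.2, 32.3, 33.6 and 34.4 RPKM in primed and at 27.4, 33.1, 30.5 and 33.6 RPKM in dome-shaped libraries. The groups overlapped over most of their range. Means were 32.4 ± 2.31 and 31.1 ± 2.83 RPKM, a log2 fold change of -0.056 with a 95% interval from -0.26 to 0.15 (limma adjusted p = 0.716). A fall as large as the estimate for DSG2 lies outside that interval. The ratio of DSG2 to DSC2 RPKM, a description without a test, was 2.12 to 2.61 in primed and 1.31 to 1.93 in dome-shaped libraries and did not overlap, with replicate 4 the highest of the dome-shaped libraries.

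DSG2 and DSC2 together made up 98.3% to 98.8% of the summed desmosomal cadherin RPKM in primed and 98.7% to 99.3% in dome-shaped libraries. In RefSeq's annotation of assembly T2T-MFA8v1.1 these cadherin genes are neighbours in the order DSG2, DSG3, DSG4, DSG1, DSC1, DSC2 and DSC3. DSG3, DSG4, DSG1 and DSC1, which lie between the 2 abundant genes, were under 1 RPKM in every library. DSC3, the last of the row and a desmocollin of stratified epithelia, had 1.81, 1.29, 1.76 and 1.72 RPKM in primed and 0.933, 0.533, 0.522 and 1.01 RPKM in dome-shaped libraries. The groups did not overlap. DSC3 passed the filter through the primed group, and it was called lower (log2 fold change -0.60, SE 0.17, limma adjusted p = 0.0431). The call was lost without primed replicate 1 (-0.57), 2 (-0.67), 3 (-0.58) or 4 (-0.59) and without dome-shaped replicate 2 (-0.54) or 3 (-0.54), with adjusted p-values up to 0.111. It was also lost with a pseudocount of 0.1 (adjusted p = 0.0540) and with quantile normalization (adjusted p = 0.0693).

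PERP encodes a tetraspan membrane protein of desmosomes that is also a p53 target. It stood at 23.6, 29.4, 39.0 and 25.4 RPKM in primed and at 27.2, 18.3, 24.9 and 14.9 RPKM in dome-shaped libraries. The groups overlapped, and dome-shaped replicate 4 was the lowest of all. Means were 29.4 ± 6.85 and 21.3 ± 5.72 RPKM. The log2 fold change of -0.46 had a 95% interval from -0.93 to 0.016 (limma adjusted p = 0.170), so neither no change nor a fall like that of DSP lies outside it.

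**Figure D2:**
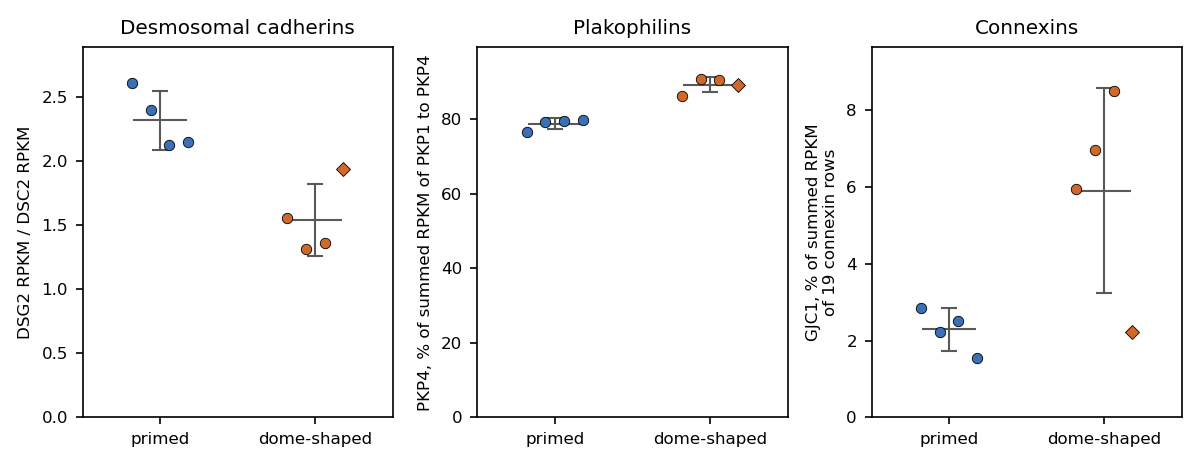
DSG2 to DSC2 ratio, PKP4 as a percentage of the summed RPKM of PKP1 to PKP4, and GJC1 as a percentage of the summed RPKM of 19 connexin rows, per library (points, diamonds for dome-shaped replicate 4, bars for mean and SD). The groups do not overlap in the first and second panels, and in the third replicate 4, at 2.21%, lies within the primed range of 1.55% to 2.86%.

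GJA1, connexin 43, was the most abundant of the 9 genes in every library. Its levels were 604, 643, 547 and 698 RPKM in primed and 506, 538, 457 and 667 RPKM in dome-shaped libraries. Dome-shaped replicates 1 to 3 were below all primed libraries, and replicate 4 was above all but primed replicate 4. Means were 623 ± 63.7 and 542 ± 90.0 RPKM, a log2 fold change of -0.21 with a 95% interval from -0.48 to 0.067 (SE 0.12, limma adjusted p = 0.274). It was not called with any single library left out either. The best match of the row is a predicted protein marked as low quality (93.6% identity), and reads of a near-identical copy, if counted here, could not be separated.

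GJC1, connexin 45, which forms channels of low conductance, was the only one of the 9 genes with a higher mean in dome-shaped cells. Primed libraries held 18.3, 15.1, 14.6 and 11.2 RPKM, dome-shaped replicates 1 to 3 held 32.9, 41.6 and 43.9 RPKM, and dome-shaped replicate 4 held 15.4 RPKM. Replicate 4 lay inside the primed range and the other dome-shaped libraries were above it. Its means were 14.8 ± 2.89 and 33.5 ± 12.9 RPKM (SD, n = 4 each), and it was called higher (log2 fold change 1.04, SE 0.30, limma adjusted p = 0.0467). Without dome-shaped replicate 4 the log2 fold change was 1.37 (adjusted p = 0.00181, beside 8.26% of all genes called higher in that fit). The call was lost without primed replicate 1 (1.15), 2 (1.06), 3 (1.04) or 4 (0.93) and without dome-shaped replicate 1 (1.02), 2 (0.91) or 3 (0.88), with adjusted p-values up to 0.120. With no filter, whose larger set of genes enters the adjustment, the adjusted p was 0.0797, and with median-of-ratios scaling it was 0.0502. The first title of the row's best match names gap junction delta-3 and later titles of that same match name gap junction gamma-1, the product of GJC1, so the row's identity rests on the match. A separate row matched GJD3 and did not exceed 1.05 RPKM in any library.

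GJA1 made up 94.3% to 96.1% of the summed RPKM of 19 connexin rows in primed libraries, 88.3% to 91.4% in dome-shaped replicates 1 to 3 and 95.6% in replicate 4. The share of GJC1 was 1.55% to 2.86%, 5.94% to 8.48% and 2.21% in the same order. In dome-shaped replicates 1 to 3 the ratio of GJA1 to GJC1 was 10.4 to 15.4, against 33.0 to 62.2 in primed libraries and 43.3 in replicate 4. These shares are descriptions without a test. Of the 19 connexin rows 14 were under 1 RPKM in every library, and GJB1 was listed at 0 throughout. GJA9 was the only other connexin above 5 RPKM, at 12.8 and 13.3 RPKM on average (log2 fold change 0.052, limma adjusted p = 0.779), and its reads may include those of an overlapping gene.

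By level, the primed order was GJA1, DSG2, JUP, DSP, DSC2, PERP, PKP2, GJC1 and PKP3. Only the steps from GJA1 to DSG2, from DSG2 to JUP and from GJC1 to PKP3 were wider than the spread of the libraries, and the other neighbours overlapped. In dome-shaped ESCs the order was GJA1, DSG2, GJC1, DSC2, JUP, DSP, PERP, PKP2 and PKP3. GJC1 came after DSG2 on average there, but it overlapped both neighbours. In that group only the steps from GJA1 to DSG2, PERP to PKP2 and PKP2 to PKP3 did not overlap.

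Dome-shaped replicate 4 did not stand on one side of its group for these genes. It lay beyond the other dome-shaped libraries on the primed side for 5 genes (DSG2, DSC2, PKP3, GJA1 and GJC1), on the far side for JUP and PERP, and among them for DSP and PKP2. It was inside the primed range for 3 genes, DSC2, GJA1 and GJC1. Without it, GJA1 and GJC1 did not overlap either, which made 5 of the 8 tested genes, where 32.2% of all genes tested did not overlap. DSG2 then stood at a log2 fold change of -0.80 (limma adjusted p = 0.000495, where 9.24% of all genes were called lower). Without primed replicate 1 as well, an alternative chosen after the data were seen, 4 of the genes were called lower and 1 higher. In that fit 1464 of all 15597 genes tested were called lower and 1209 higher, beside 1242 and 995 with all libraries.

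**Figure D3:**
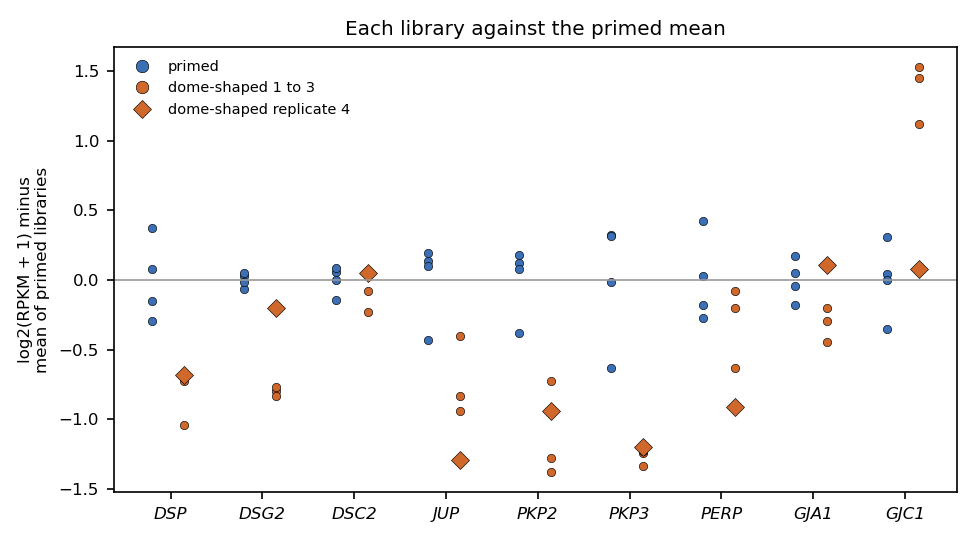
log2(RPKM + 1) of each library minus the mean of the primed libraries of that gene (vertical axis) for the 9 genes, with primed libraries left and dome-shaped libraries right of each tick. Diamonds are dome-shaped replicate 4, which lies near 0 for DSC2, GJA1 and GJC1 and is the lowest point for JUP and PERP.

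A further 41 genes of desmosomes, gap junctions and their partners, also chosen with earlier results known, are described, and 17 passed the filter. Of these 8 were lower, 4 of them keratins, 1 was higher and 8 were not called, where 7.96% of all genes were called lower and 6.38% higher. Their median log2 fold change was -0.30, beside 0.026 for all genes. In the desmosome list of 11 genes 2 of the 4 tested fell, DSC3 and PPL. PPL, periplakin, a linker related to desmoplakin, had 5.68, 6.73, 6.66 and 8.42 RPKM in primed and 3.14, 1.30, 1.40 and 2.58 RPKM in dome-shaped libraries. It was called lower at a log2 fold change of -1.38 (SE 0.22, limma adjusted p = 0.00599), with no overlap. The other 7 (DSC1, DSG1, DSG3, DSG4, PKP1, EVPL and CDSN), mostly genes of stratified epithelia, were under 1 RPKM in every library.

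PKP4, a plakophilin relative that is also found in adherens junctions, was the most abundant of its family. Its means were 87.2 and 80.4 RPKM in primed and dome-shaped libraries (log2 fold change -0.10, 95% interval -0.37 to 0.16, limma adjusted p = 0.585). PKP4 made up 76.5% to 79.8% of the summed plakophilin RPKM in primed and 86.4% to 90.9% in dome-shaped libraries. PKP2 made up 17.7% to 22.7% and 9.001% to 13.5%. PNN, pinin, a desmosome-associated protein that also acts in splicing, was not called (log2 fold change 0.027, limma adjusted p = 0.844).

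All 4 listed keratins, the filaments that desmoplakin anchors in epithelia, fell. KRT7 changed by -1.89, KRT8 by -1.09, KRT18 by -1.47 and KRT19 by -1.24 on the log2 scale (SE 0.15 to 0.22, limma adjusted p-values of 0.00128, 0.00333, 0.00323 and 0.00932). KRT18 and KRT19 matched several rows, and those not used held at most 2.42 RPKM for KRT18 and 0.0695 RPKM for KRT19 in any library. The handling of reads shared between near-identical copies was not tested. The summed keratin level was 499 to 687 RPKM in primed and 203 to 324 RPKM in dome-shaped libraries. VIM, vimentin, the filament of mesenchymal cells, had 357, 62.2, 76.8 and 52.4 RPKM in primed and 834, 755, 788 and 456 RPKM in dome-shaped libraries, and rose by 2.81 (SE 0.53, limma adjusted p = 0.0112), or by 3.43 without primed replicate 1. Primed replicate 1 was closest to the dome-shaped libraries for VIM, yet its keratin sum of 687 RPKM was the highest.

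Among partners of connexins, TJP1 (ZO-1, the scaffold that binds the tail of connexin 43) had 65.0, 66.2, 63.6 and 66.3 RPKM in primed and 52.6, 52.1, 53.1 and 54.1 RPKM in dome-shaped libraries. The groups were tight and did not overlap. The log2 fold change of TJP1 was -0.30 (SE 0.059, limma adjusted p = 0.0133), and without primed replicate 2 the adjusted p was 0.0530 (-0.29). DBN1, CNST and CAV1 were not called, at limma adjusted p-values of 0.0958, 0.114 and 0.169. CAV1, caveolin 1, ranged from 12.2 to 24.7 RPKM in primed replicates 2 to 4 but had 65.2 RPKM in replicate 1, and without the latter it was called higher (log2 fold change 1.499, limma adjusted p = 0.0430). DBN1, drebrin, was called lower without dome-shaped replicate 1 (log2 fold change -0.21, adjusted p = 0.0340).

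Pannexins form channels, as connexins do, but do not usually make junctions. PANX2 had 3.604, 4.82, 3.86 and 4.98 RPKM in primed and 1.37, 0.665, 0.956 and 1.29 RPKM in dome-shaped libraries. It passed the filter through the primed group and was called lower (log2 fold change -1.37, SE 0.17, limma adjusted p = 0.00252), with no overlap. PANX1 was not called (log2 fold change 0.13, 95% interval -0.28 to 0.54, adjusted p = 0.672).

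**Figure D4:**
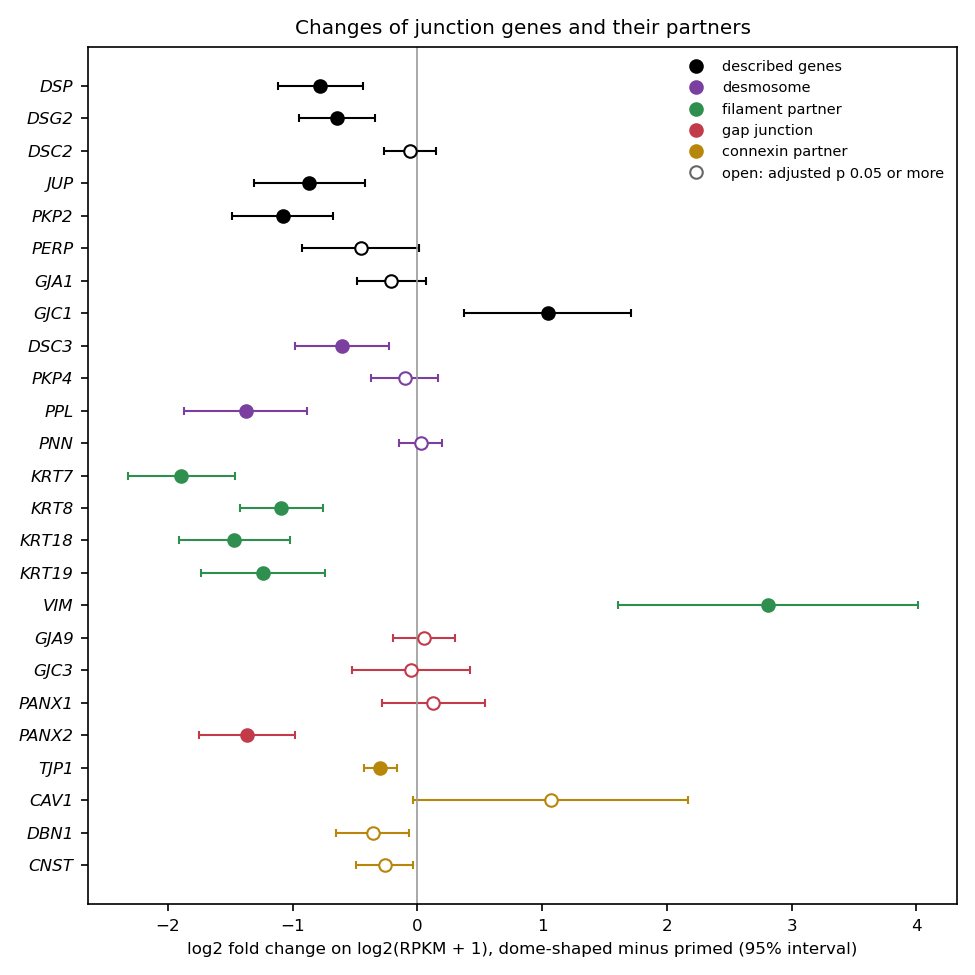
log2 fold change on log2(RPKM + 1), dome-shaped minus primed, with its 95% interval (horizontal axis) for the tested genes, coloured by list. Filled points have an adjusted p below 0.05. DSP, DSG2, JUP and PKP2 lie left of 0 with the 4 keratins, PPL and PANX2, while GJC1 and VIM lie right of it.

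Desmosomes are prominent in heart muscle, and PKP2, DSP, JUP, DSG2 and DSC2 are known from inherited heart muscle disease. Of 4 cardiomyocyte markers, MYH6 and NPPA were under 1 RPKM in every library. TNNT2 fell (log2 fold change -1.37, limma adjusted p = 0.00262), and ACTN2 was not called.

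The patterns most like DSP over the 8 libraries, among 2338 genes that the table names and that had a mean of at least 5 RPKM, were those of AGPAT2 (Pearson r = 0.977), SFN (r = 0.949) and QSOX2 (r = 0.947). For GJA1 they were GPBP1L1 (r = 0.947), IQSEC2 (r = 0.936) and CEP85 (r = 0.935). These values describe likeness only. The libraries share the 2 groups and their scaling, and all 6 of these genes had the higher mean in primed cells, as did DSP and GJA1.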

How the data were processed

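The authors deposited 1 table of RPKM values (33138 rows, 17 of them blank) for 8 libraries, with gene names and protein matches. The percent identity of each match was also computed by the authors, per the file headers. Aligners TopHat2 2.0.9 and Bowtie2 2.0.6 and the counter HTSeq 0.6.1 are listed in the submitters' processing notes, and the build is not given in the sources used here. RPKM times gene length was multiplied by a depth for each library, chosen to make the share of whole reads as large as possible. That share (within 0.01) was 71.9% to 73.8% of values under 50 reads, too few for a count test. Libraries were grouped by their labelled source, and replicate numbers are only names.

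Values were taken as log2(RPKM + 1) and fitted with limma 3.58.1 in R 4.3.3 (lmFit, eBayes with trend, two-sided, all 8 libraries, no covariates), tested on simulated data first. Exact permutation tests used scipy 1.17.1. Intervals are 95% limma intervals. Table columns of other samples numbered 0.

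The members and lists were chosen with earlier results of these data known, and 2 genes of the desmosome and gap junction lists are not reported here. The rule for names took the members, other desmosome and gap junction genes that were called or had a mean of at least 5 RPKM, and the 3 genes most like DSP and GJA1. Markers and listed genes at low levels are named beside their counts. A protein match needed 85% identity. For genes other than the 9, the second and then the third match was searched where no best match carried the name. Among the genes named here, PPL, CDSN, CAV1, ZEB1 and ZEB2 were found by their second match. Some patterns for genes other than the 9 were corrected after values had been seen, without using the groups, with at least 0.25 of the protein covered. RefSeq T2T-MFA8v1.1 served for gene order only. Alternatives were pseudocounts of 0.1 and 0.5, quantile and median-of-ratios scaling, no filter, a filter at a mean of 5 RPKM, each library left out and a replicate block by the number after CES.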

Additional observations from a re-analysis of the deposited data

Results flagged for a closer look

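In 3 of 50 groups of 4 libraries checked (25 genes), 1 library lay far from the other three, by Dixon's test at the 95% level. Chance flags about 1 group in 20. DSG2 stood at 64.9 RPKM in dome-shaped replicate 4, above the others of its group. VIM stood at 357 RPKM in primed replicate 1 and DBN1 at 151 RPKM in dome-shaped replicate 1.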

How the results depend on the processing

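DSP, DSG2, JUP, PKP2 and GJC1 kept their direction in each alternative run, and PKP2 was called in each. No scaling moved the median log2 fold change of all genes past 0.039. Of all genes tested, 995 were higher and 1242 lower. A replicate block by CES number gave 303 and 593. With 1 library left out, or with primed replicate 1 and dome-shaped replicate 4 both left out (added after the data were seen), they ranged from 381 to 1289 and from 655 to 1464. Of the 9 genes, 4 were lower and 1 higher. With the replicate block 2 were lower and 0 higher, as DSP, DSG2 and GJC1 had adjusted p-values of 0.0550, 0.0564 and 0.0717. The block also ended the calls of DSC3 (0.107), TJP1 (0.0611), HAND1 (0.0666) and TDGF1 (0.0803). With 1 library left out 2 to 4 were lower and 0 to 1 higher, and 0 were higher with no filter or with median-of-ratios scaling. Of the other listed genes 8 were lower and 1 higher. A mean of at least 5 RPKM left 5 lower, since fewer genes were tested, and 2 were higher without primed replicate 1, alone or with dome-shaped replicate 4. Values of DSC2, GJA9 and PNN near 0 changed sign while called in no fit. Over the same sets of libraries left out, DSC2 ranged from -0.14 to 0.0018, GJA9 from -0.0085 to 0.11 and PNN from -0.0084 to 0.090, and PNN was -0.0073 with median-of-ratios scaling. The cause was not tested. Between the groups, same-numbered libraries had residual correlations from -0.098 to 0.12, and libraries with different numbers from -0.22 to 0.20. Libraries that share a number within a group were not compared. These few values cannot settle whether the number pairs samples, so the block was kept as an alternative. No gene of the 9 had a second row to try.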
